A study of Homo sapiens with 9 samples.

Results

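The keratin family was followed in VCaP cells in which KMT2C had been lowered with siRNA. Members were the genes whose symbol is KRT followed by digits and at most 1 letter A, B or C and that have a protein-coding transcript, which leaves out the keratin-associated proteins. This rule took 55 of the 60612 genes measured and used no expression value. The family itself was chosen with earlier results of these data known. VCaP is an established human prostate cancer line with a TMPRSS2-ERG gene fusion. RNA was sequenced from cells transfected for 4 days with KMT2C siRNA 1, with KMT2C siRNA 2 or with a control siRNA, in 3 libraries per group. All 3 groups are the same cell line, which the labels call KMT2C normal under the control siRNA and KMT2C deficient under either KMT2C siRNA. The comparisons ask which keratins change when this histone H3 lysine 4 methyltransferase is lowered, and whether both siRNA sequences give the same change. The labels do not say that the 3 libraries of a group came from separate cultures, so the p-values measure only the spread between these libraries, which may be technical.

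Keratins are the intermediate filament proteins of epithelial cells. A filament is built from pairs of an acidic type I chain and a basic type II chain, so each cell type expresses at least 1 member of each type. Luminal cells of the prostate, like other simple epithelia, are known for KRT8 (type II) with KRT18 and KRT19 (type I), while basal cells of the prostate and of stratified epithelia are known for KRT5 (type II) with KRT14 and KRT15 (type I). The human genes lie in a cluster on chromosome 12, which holds 27 of the members including all type II genes and the type I gene KRT18, and in a cluster on chromosome 17, which holds the other 28.

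Library totals were 58462215 to 70726213 estimated counts. Single entries of 4 counts (11286) were more frequent than entries of 3 (4677) or 5 (2524), and 4 counts were therefore taken as 1 sequenced fragment. Entries of 1 (6621) and of 2 (5430) also occurred, so this is an approximation. KMT2C averaged 1.87 ± 0.375 FPKM (fragments scaled for transcript length and library size) with siRNA 1, 1.70 ± 0.0488 FPKM with siRNA 2 and 12.9 ± 0.806 FPKM in control cells (SD, n = 3 each). The label of the cells was checked with the luminal genes KLK3, HOXB13 and FOLH1 and with ERG, the gene of the fusion. Their group means were all at least 3.39 FPKM. KLK3, the gene of prostate-specific antigen, averaged 9.10 FPKM with siRNA 1, 3.39 FPKM with siRNA 2 and 68.9 FPKM in control cells. HOXB13 averaged 173.5 FPKM with siRNA 1, 89.5 FPKM with siRNA 2 and 194.7 FPKM in control cells, and FOLH1 44.8, 30.6 and 64.0 FPKM in the same groups. ERG averaged 33.4 FPKM with siRNA 1, 32.3 FPKM with siRNA 2 and 63.9 FPKM in control cells. The part of these marker levels in the keratin results was not tested. The basal markers TP63 and NGFR had group means of at most 0.0203 FPKM, and the markers of leukocytes, endothelium and fibroblasts, PTPRC, PECAM1, COL1A1 and VIM, of at most 0.437 FPKM. In bulk RNA, fewer cells of a type and less RNA per cell cannot be told apart.

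Few keratins carried the signal. Counts were found for 28 of the 55 members in at least 1 library and for 8 in all 9 libraries, and 27 members had no count in any library. The low-value filter asked for 3 or more libraries with an FPKM of 1 or above, and 6 members passed it: KRT8, KRT18, KRT19, KRT10, KRT14 and KRT2. KRT2 passed it through the control libraries alone, so a lower value with the siRNAs was built into its selection. Just outside the filter stood KRT80, with an FPKM of 1 or above in 2 libraries. The tests below are edgeR's quasi-likelihood test on the counts with Benjamini-Hochberg adjustment over all 12830 genes tested, and log2 fold changes carry ± SE.

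**Figure D1:**
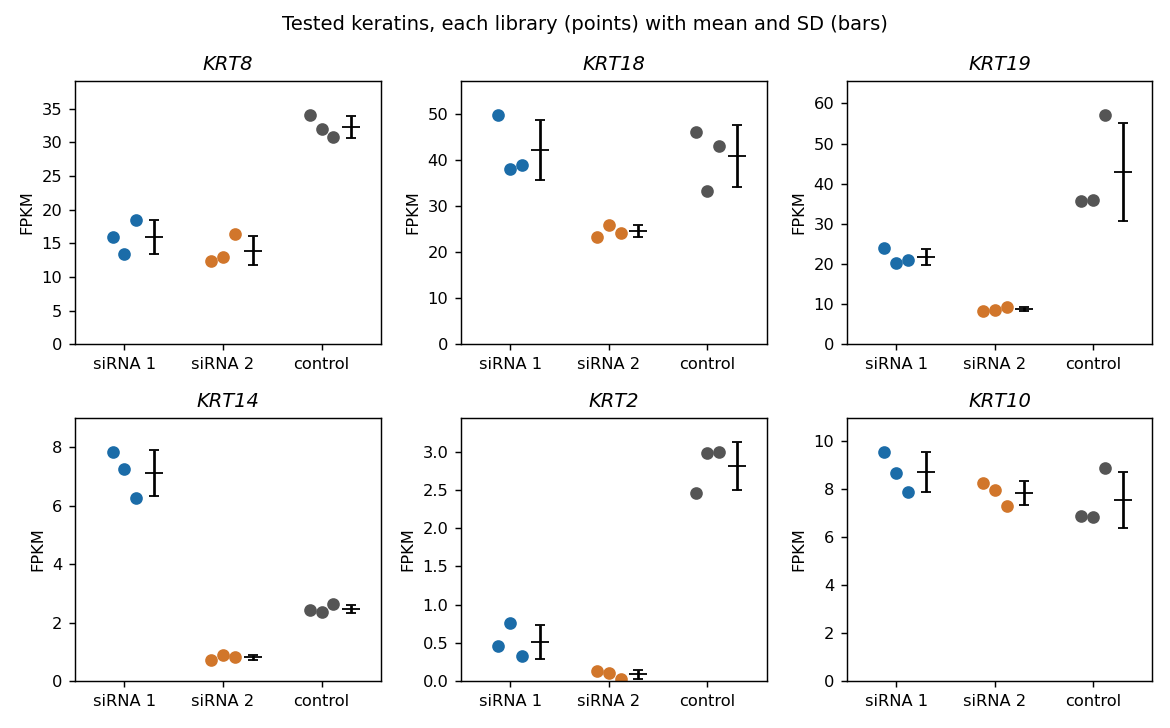
Level of the 6 tested keratins in FPKM (y axis, from 0) in every library (points) of the siRNA 1, siRNA 2 and control groups, with the mean and SD of the 3 libraries beside them. KRT8, KRT19 and KRT2 lie lower with either siRNA than in any control library, KRT14 lies above control with siRNA 1 and below it with siRNA 2, and the KRT10 groups overlap.

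The luminal keratins were the most abundant members. KRT8 (ENSG00000170421, GRCh38 chromosome 12, 52897187 to 52949920, minus strand), the type II chain of simple epithelia, had 16.0, 13.4 and 18.4 FPKM with siRNA 1, 12.4, 12.9 and 16.3 FPKM with siRNA 2, and 34.0, 32.0 and 30.8 FPKM in control cells. Every control library was above all 6 siRNA libraries, and the siRNA groups overlapped each other. KRT8 fell by 1.04 ± 0.14 on the log2 scale with siRNA 1 (2.06-fold, edgeR adjusted p = 4.82e-04) and by 1.27 ± 0.14 with siRNA 2 (2.41-fold, edgeR adjusted p = 9.42e-05). The siRNAs differed from each other by 0.23 ± 0.13, which did not pass the test (edgeR adjusted p = 0.215).

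KRT18 (ENSG00000111057, chromosome 12, 52948871 to 52952900, plus strand), the type I partner of KRT8, did not follow it with siRNA 1. It had 49.7, 38.0 and 38.9 FPKM with siRNA 1, 23.4, 26.0 and 24.2 FPKM with siRNA 2, and 46.2, 33.4 and 43.0 FPKM in control cells. The siRNA 1 and control libraries were intermingled, while all 3 siRNA 2 libraries lay below both of these groups. The log2 fold change was 0.03 ± 0.14 with siRNA 1 (edgeR adjusted p = 0.902) and -0.79 ± 0.14 with siRNA 2 (1.73-fold lower, edgeR adjusted p = 0.00172). The direct comparison of siRNA 1 with siRNA 2 gave 0.82 ± 0.14 (edgeR adjusted p = 0.00207).

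KRT8 and KRT18 are neighbours transcribed from opposite strands, and in GENCODE release 29 their exons share 525 bases, of 6881 exon bases in KRT8 and 3218 in KRT18. Whether the counting used strand is not given in the sources used here, so reads from the shared stretch cannot be assigned with certainty to either gene. Both genes also have processed pseudogenes. The 51 KRT8 pseudogenes of the table, 31 of them with counts, held together 403 to 507 counts in the siRNA 1 libraries, 469 to 486 in the siRNA 2 libraries and 520 to 609 in the control libraries, which is 3.21% to 7.19% of the KRT8 count of the same library. For the 67 KRT18 pseudogenes the share was 1.40% to 3.85% of the KRT18 count. The highest pseudogenes, KRT8P3, KRT8P12 and KRT8P33, averaged 0.837, 0.785 and 0.762 FPKM over the 9 libraries, and none of the 3 passed the filter.

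The ratio of KRT8 to KRT18 in FPKM was 0.321, 0.354 and 0.473 with siRNA 1, 0.530, 0.498 and 0.675 with siRNA 2, and 0.737, 0.958 and 0.717 in control cells. All 6 siRNA libraries lay below the 3 control libraries, and the siRNA 1 libraries lay below the siRNA 2 libraries. On the scale of counts, which does not correct for length, the ratio averaged 0.858 ± 0.180 with siRNA 1, 1.27 ± 0.211 with siRNA 2 and 1.80 ± 0.300 in control cells (SD, n = 3 each), so in siRNA 2 and control cells KRT18 was the higher gene in FPKM and KRT8 in counts. The order of the 3 group means was the same on both scales.

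KRT19 (ENSG00000171345, chromosome 17, 41523617 to 41528308, minus strand), the smallest type I keratin, fell with both siRNAs and further with siRNA 2. It had 24.0, 20.3 and 20.9 FPKM with siRNA 1, 8.29, 8.56 and 9.37 FPKM with siRNA 2, and 35.7, 36.0 and 57.0 FPKM in control cells. The 3 groups did not overlap, and 1 control library stood well above the other two. The log2 fold change was -1.01 ± 0.18 with siRNA 1 (2.01-fold lower, edgeR adjusted p = 0.00265) and -2.35 ± 0.19 with siRNA 2 (5.10-fold lower, edgeR adjusted p = 1.94e-05), and siRNA 1 was 1.35 ± 0.19 above siRNA 2 (edgeR adjusted p = 6.21e-04). KRT7 and KRT20, the other simple-epithelial keratins listed, were close to undetected. KRT7 had 2, 19 and 33 counts with siRNA 1, 25, 0 and 11 with siRNA 2, and 71, 21 and 0 in control cells. KRT20, a keratin of intestinal and urothelial surface cells, had 17 counts over the siRNA 1 libraries, 20 over the siRNA 2 libraries and none in control cells.

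Among the basal keratins only KRT14 passed the filter, and the siRNAs moved it in opposite directions. KRT14 (ENSG00000186847, chromosome 17, 41582279 to 41586895, minus strand), the type I keratin of basal cells, had 7.84, 7.25 and 6.27 FPKM with siRNA 1, 0.719, 0.886 and 0.826 FPKM with siRNA 2, and 2.43, 2.37 and 2.63 FPKM in control cells. The 3 groups were fully separate, with siRNA 1 highest and siRNA 2 lowest. It rose by 1.49 ± 0.13 on the log2 scale with siRNA 1 (2.82-fold, edgeR adjusted p = 6.43e-05) and fell by 1.65 ± 0.13 with siRNA 2 (3.14-fold, edgeR adjusted p = 1.86e-05). Between the siRNAs the difference was 3.15 ± 0.14, or 8.85-fold (edgeR adjusted p = 2.30e-06). The other basal markers TP63 and NGFR were near 0 in all groups, with at most 0.0157 and 0.0609 FPKM in any library.

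KRT5, the type II partner of KRT14 in basal cells, had counts in only 1 of the 9 libraries, 43 counts in a siRNA 1 library. The related type I genes KRT16 and KRT17 had at most 30 counts in any library, and the 14 pseudogenes of KRT14, KRT16 and KRT17 at most 23 counts together, against 1068 to 1447 KRT14 counts with siRNA 1, 126 to 161 with siRNA 2 and 381 to 500 in control cells. KRT17 had 0, 0 and 8 counts with siRNA 1, 0, 4 and 13 with siRNA 2, and 30, 9 and 0 in control cells. Its groups overlapped, and with no filter beyond 1 count edgeR called it with neither siRNA against control (adjusted p = 0.507 and 0.704). KRT6B, a type II keratin of activated keratinocytes, had 113, 57 and 58 counts with siRNA 1, 27, 13 and 38 with siRNA 2, and 44, 25 and 50 in control cells, so every siRNA 1 library was above the control and siRNA 2 libraries. Its neighbours KRT6A and KRT6C, near-identical in sequence, had at most 36 counts in any library, and reads may have been shared among the 3 genes. KRT15, another basal type I keratin, had 0, 4 and 8 counts with siRNA 1, 60, 33 and 54 with siRNA 2, and 26, 4 and 8 in control cells. Its siRNA 2 libraries were above all others, and the siRNA 1 and control libraries overlapped. With no filter beyond 1 count, edgeR gave KRT15 a log2 fold change against control of -1.71 ± 1.05 in siRNA 1 cells (adjusted p = 0.370) and of 1.78 ± 0.98 in siRNA 2 cells (adjusted p = 0.281), neither of which passed.

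**Figure D2:**
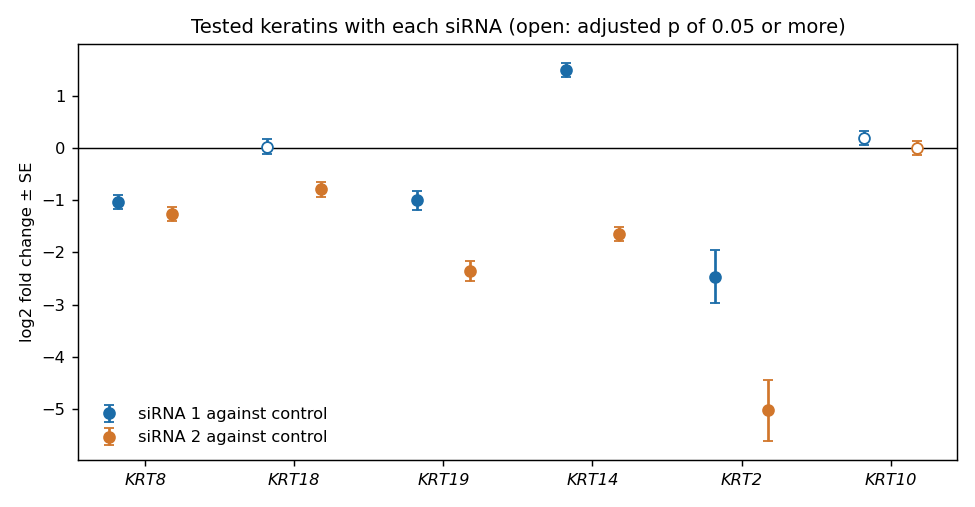
Log2 fold change against control (y axis, ± SE) of the 6 tested keratins with siRNA 1 (blue) and siRNA 2 (orange). Filled points passed the test at an adjusted p under 0.05. KRT14 is the member called in opposite directions, and KRT18 is called with siRNA 2 but not with siRNA 1.

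Of the 11 keratins of differentiated layers of stratified epithelium, 5 had counts and 2 were tested. KRT2 (ENSG00000172867, chromosome 12, 52644558 to 52652211, minus strand), a type II keratin of the upper epidermis, had 0.460, 0.761 and 0.325 FPKM with siRNA 1, 0.131, 0.107 and 0.0185 FPKM with siRNA 2, and 2.46, 2.99 and 3.00 FPKM in control cells. The 3 groups did not overlap. It fell by 2.46 ± 0.51 on the log2 scale with siRNA 1 (5.52-fold, edgeR adjusted p = 0.00475) and by 5.02 ± 0.59 with siRNA 2 (32.5-fold, edgeR adjusted p = 1.52e-04), and siRNA 1 was 2.56 ± 0.55 above siRNA 2 (edgeR adjusted p = 0.00637). The siRNA 2 value rests on 27, 23 and 4 counts, against 438, 614 and 647 in control cells.

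KRT4, a type II keratin of mucosal epithelia, was below the filter and was also found mainly in control cells. It had 4, 0 and 0 counts with siRNA 1, 0 in each siRNA 2 library, and 40, 51 and 93 counts in control cells. Its summed counts were 47.3-fold lower with siRNA 1 (95% exact interval 8.08 to 1910) and at least 16.1-fold lower with siRNA 2, taking 3 fragments over the group as the floor. The interval and such bounds cover counting error only, not the spread between libraries. KRT13, the type I partner of KRT4, had no count in any library. KRT73, a type II keratin of the hair follicle's inner root sheath, was also at 0 in all 6 siRNA libraries, against 8, 30 and 43 counts in control cells, at least 6.95-fold lower with siRNA 1 and at least 7.07-fold lower with siRNA 2. Of its 2652 exon bases, 1003 are shared with the antisense gene KRT73-AS1, which had counts in 1 control library only.

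KRT10 (ENSG00000186395, chromosome 17, 40818117 to 40822614, minus strand), known as the type I keratin of the suprabasal epidermis, was present at a similar level in all groups. It had 9.53, 8.65 and 7.87 FPKM with siRNA 1, 8.23, 7.97 and 7.29 FPKM with siRNA 2, and 6.87, 6.83 and 8.87 FPKM in control cells, and the groups overlapped. The log2 fold change was 0.18 ± 0.13 with siRNA 1 (edgeR adjusted p = 0.305) and 0.00090 ± 0.13 with siRNA 2 (edgeR adjusted p = 0.996), and the difference between the siRNAs was 0.18 ± 0.13 (edgeR adjusted p = 0.316). KRT1, its type II partner in epidermis, had 8 counts in 1 siRNA 2 library and none elsewhere. KRT10 shares 56 of its 2144 exon bases with TMEM99 on the opposite strand.

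Promoter sequences are shown for KRT2 and KRT4, which were both found mainly in control cells, for KRT10, whose groups overlapped, and for the luminal gene KRT8. Each is the 150 bases before the gene's start in RefSeq (GRCh38.p14), read 5′ to 3′ on the minus strand, at chr12:52652212-52652361 for KRT2, chr12:52814117-52814266 for KRT4, chr17:40822615-40822764 for KRT10 and chr12:52926470-52926619 for KRT8. Capitals mark matches on either strand to TATAA (the core of a TATA box), GGGCGG (bound by SP1) or CCGGAAG (bound by ETS factors, the family of ERG).
KRT2: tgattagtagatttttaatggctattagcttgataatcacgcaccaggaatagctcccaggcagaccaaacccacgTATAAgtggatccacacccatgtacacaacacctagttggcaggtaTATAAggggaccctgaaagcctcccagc
KRT4: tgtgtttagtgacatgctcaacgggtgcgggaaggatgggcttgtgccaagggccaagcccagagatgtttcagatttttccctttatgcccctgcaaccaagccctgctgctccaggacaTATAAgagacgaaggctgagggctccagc
KRT10: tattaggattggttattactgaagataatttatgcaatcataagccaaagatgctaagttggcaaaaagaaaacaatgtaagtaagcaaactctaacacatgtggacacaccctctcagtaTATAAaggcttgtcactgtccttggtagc
KRT8: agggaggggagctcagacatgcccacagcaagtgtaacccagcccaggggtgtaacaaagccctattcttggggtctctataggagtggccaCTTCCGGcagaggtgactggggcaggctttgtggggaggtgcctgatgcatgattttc
The start in RefSeq is the start of the gene in the deposited table for KRT2, KRT4 and KRT10, while for KRT8 the table's gene starts further upstream, at 52949920, inside KRT18. TATAA stood 28 bases before the start in KRT2, with a further match 74 bases before it, and 29 bases before the start in KRT4 and in KRT10. The KRT8 window held no TATAA and held CCGGAAG on the opposite strand. A single start per gene was used, so this window does not describe any other start of KRT8. A window with TATAA was found for 23 of the 34 keratins with a promoter in the table (67.6%) and for 12.7% of all 27305 promoters of the same length. GGGCGG was found in 8.82% of keratin windows and 36.7% of all windows, and CCGGAAG in 2.94% and 7.18%. These matches describe letters only and do not show that a factor binds there. KRT18, KRT19, KRT14 and KRT80 were not matched in this table.

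Read as counts, 4 of the 6 tested keratins were called with siRNA 1, 1 higher (KRT14) and 3 lower (KRT8, KRT19 and KRT2), where 41.7% of all tested genes were called, 21.2% higher and 20.5% lower. With siRNA 2, 5 of 6 were called, all lower, where 49.3% of all tested genes were called, 24.4% higher and 24.9% lower. Lower with both siRNAs were KRT8, KRT19 and KRT2, against 12.6% of tested genes, and called in opposite directions was KRT14, against 3.24%. Between siRNA 1 and siRNA 2, 4 of 6 were called, all higher with siRNA 1 (KRT18, KRT19, KRT14 and KRT2), where 39.5% of tested genes were called, 20.6% higher and 18.9% lower. Both siRNA groups were set against the same control libraries, so their 2 lists of calls are not independent. With 6 tested members, 1 of which passed through the control group alone, these counts are a description.

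Set by class, all 5 simple-epithelial keratins had counts and 3 were tested. Of these 3, 2 fell with siRNA 1 and 3 with siRNA 2, where 20.5% and 24.9% of all tested genes fell. Their median log2 fold change was -1.01 and -1.27, against 0.01 and 0.02 over all tested genes. All 8 basal and activation keratins had counts in some library, but only KRT14 was tested. Counts were found for 4 of 17 hair keratins, for 2 of 9 keratins of the hair follicle sheath and for 4 of 5 other members, and none of these was tested.

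The summed keratin level was 109, 90.2 and 94.5 FPKM with siRNA 1, 54.7, 57.4 and 59.1 FPKM with siRNA 2, and 129, 115 and 147 FPKM in control cells. The groups did not overlap, with siRNA 2 lowest. Type II keratins summed to 17.9, 15.9 and 20.2 FPKM with siRNA 1, 13.7, 13.8 and 17.2 FPKM with siRNA 2, and 37.8, 36.1 and 35.4 FPKM in control cells. Type I keratins summed to 79.9 ± 9.76 FPKM with siRNA 1, 42.1 ± 1.36 FPKM with siRNA 2 and 94.0 ± 16.7 FPKM in control cells (SD, n = 3 each). Thus the siRNA 1 libraries lay below control in the type II sum, while in the type I sum their ranges, 74.3 to 91.2 FPKM with siRNA 1 and 78.6 to 112 FPKM in control cells, overlapped.

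KRT8, KRT18 and KRT19 together made up 81.5% ± 1.75 of the sum with siRNA 1, 82.6% ± 1.91 with siRNA 2 and 89.0% ± 0.649 in control cells. The basal and activation keratins made up 7.90% ± 0.804 with siRNA 1, 1.93% ± 0.204 with siRNA 2 and 2.19% ± 0.164 in control cells. KRT14 alone made up 7.29% with siRNA 1, 1.42% with siRNA 2 and 1.91% in control cells. The share of KRT10 was 8.89% ± 0.645 with siRNA 1, 13.8% ± 1.36 with siRNA 2 and 5.76% ± 0.395 in control cells, while its level passed no test. The order of the genes in FPKM also differed. In control cells KRT19, KRT18 and KRT8 averaged 42.9 ± 12.3, 40.9 ± 6.66 and 32.3 ± 1.62 FPKM, with overlapping ranges between neighbours. In summed control counts this order was turned, with 51551 for KRT8, 29064 for KRT18 and 23660 for KRT19. The siRNA 2 sums of these genes, 22459, 17682 and 4802, had the same order as control. The change of order between siRNA 2 and control was therefore seen in FPKM and not in counts. In edgeR on the counts, KRT19 fell 5.10-fold with siRNA 2, KRT8 2.41-fold and KRT18 1.73-fold. With siRNA 1, KRT18 (42.2 ± 6.53 FPKM) stood above KRT19 (21.8 ± 1.98 FPKM) and KRT8 (15.9 ± 2.49 FPKM), and none of their ranges overlapped. In counts KRT8 was above KRT19 in every siRNA 1 library, with 8985, 7242 and 9551 KRT8 counts against 4587, 3720 and 3686 KRT19 counts, so its place below KRT19 rests on the length assigned to it. With siRNA 2, KRT18 (24.5 ± 1.31 FPKM) stood above KRT8 (13.9 ± 2.13 FPKM), KRT19 (8.74 ± 0.560 FPKM) and KRT10 (7.83 ± 0.486 FPKM). In counts KRT8 was above KRT18 in every siRNA 2 library, at 1.19, 1.12 and 1.51 times its count. The lowest KRT19 library there had 8.29 FPKM and the highest KRT10 library 8.23 FPKM.

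**Figure D3:**
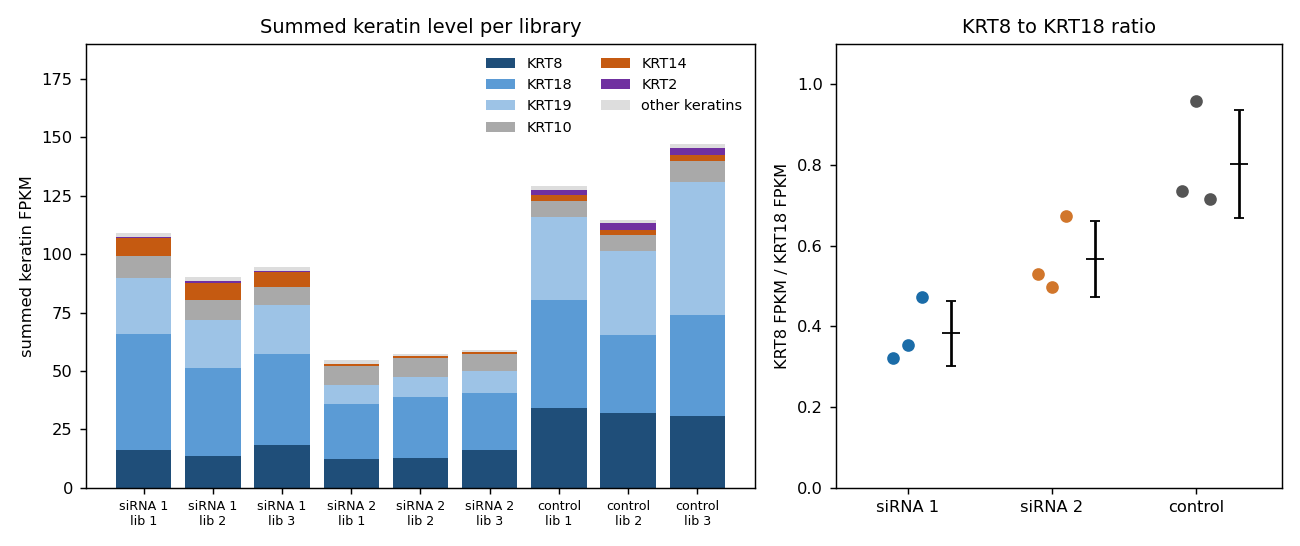
Left, summed FPKM of all keratins (y axis, from 0) in each library of the siRNA 1, siRNA 2 and control groups, split into the 6 tested keratins and the rest. Right, the ratio of KRT8 to KRT18 FPKM per library with mean and SD: it averaged 0.383 with siRNA 1, 0.567 with siRNA 2 and 0.803 in control cells.

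The other 22 members with counts stayed below the filter. KRT80, a type II keratin of many epithelia, was the highest, at 0.919 ± 0.195 FPKM with siRNA 1, 0.706 ± 0.223 FPKM with siRNA 2 and 0.523 ± 0.147 FPKM in control cells. KRT36, a hair keratin, had at most 25 counts in any library. KRT34, KRT1, KRT9, KRT24, KRT39 and KRT5 had counts in 1 library each. At this depth a group of 3 libraries at 0 allows up to 12 counts, or 3 fragments, so lower levels of the 27 members without counts were not detectable.

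**Figure D4:**
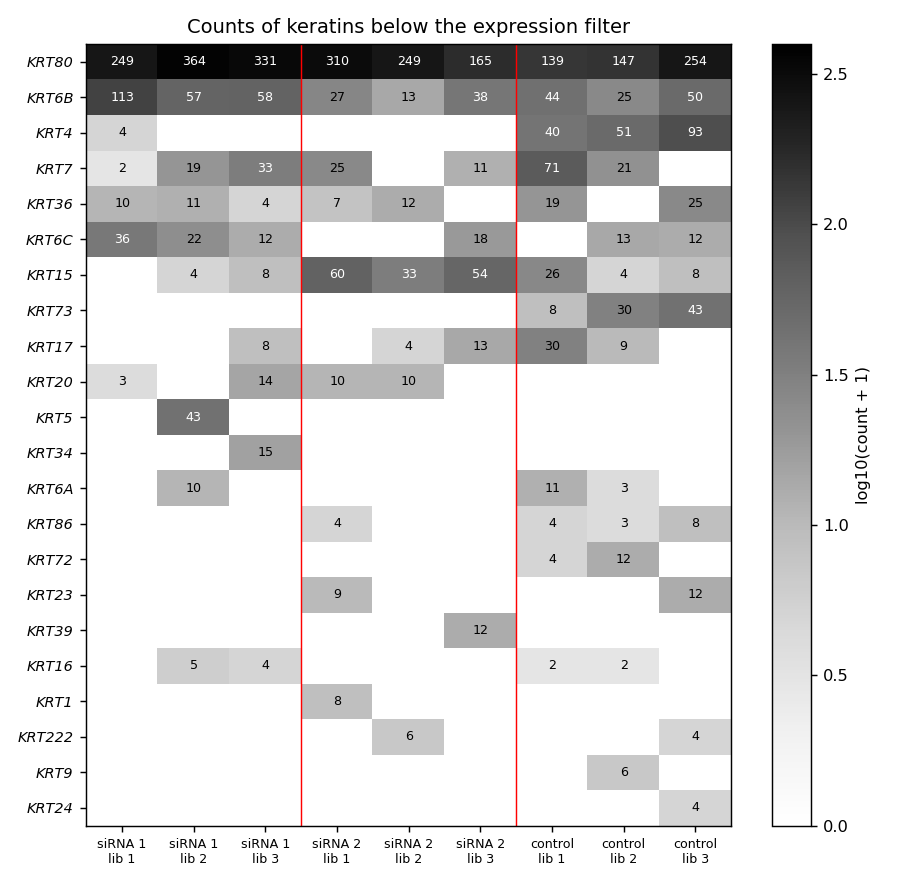
Estimated counts of the 22 keratins below the filter (rows, by mean FPKM) in each library (columns; siRNA 1, siRNA 2 and control groups divided by red lines), shaded by log10(count + 1), with zeros blank. KRT4 and KRT73 have counts mainly in control cells and KRT15 mainly with siRNA 2, and 4 counts were taken as 1 fragment.

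Genes whose products hold, organise or regulate keratin filaments were taken from 5 lists, chosen with earlier results of these data known. Their counts stand against all tested genes, of which 21.2% rose and 20.5% fell with siRNA 1 and 24.4% rose and 24.9% fell with siRNA 2. Of 14 desmosome genes, which anchor keratin at cell junctions, 10 were tested, of which 4 rose and 5 fell with siRNA 1 and 2 rose and 6 fell with siRNA 2 (medians -0.25 and -0.78; over all tested genes 0.01 and 0.02). DSP, desmoplakin, the protein that ties keratin to the desmosome, fell by 1.27 with siRNA 1 and by 0.90 with siRNA 2. The desmosomal cadherin genes DSC2 (-0.92 and -1.70 with siRNA 1 and siRNA 2) and DSG2 (-1.06 and -1.73) fell with both, and PERP, a desmosome-associated membrane protein gene, rose with both (1.40 and 1.45). edgeR adjusted p for these 4 genes was at most 1.22e-04 with either siRNA.

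Of 9 hemidesmosome and plakin genes 6 were tested, of which 1 rose and 1 fell with siRNA 1 and 1 rose and 2 fell with siRNA 2, near the 41.7% and 49.3% called among all tested genes. The plakin gene EVPL rose by 0.85 under siRNA 1 and did not pass under siRNA 2 (-0.0030), the tetraspanin gene CD151 fell by 0.50 and 0.27, and the integrin gene ITGA6 fell by 1.36 under siRNA 2, against -0.27 under siRNA 1, which did not pass. DST, which encodes a linker of hemidesmosomes to filaments, rose by 0.43 under siRNA 2 and did not pass under siRNA 1 (-0.02). Of 15 other intermediate filament genes 7 were tested, of which 2 rose and 1 fell with siRNA 1 and 5 rose and none fell with siRNA 2 (medians 0.12 and 0.30), where 41.7% and 49.3% of all tested genes were called. The lamin gene LMNB2 rose by 0.51 and 0.15 and the neurofilament gene NEFM by 0.94 and 1.13, NEFM having passed the filter through the siRNA libraries alone, so that a rise was built into its selection. LMNA, which encodes A-type lamins, fell by 0.36 under siRNA 1 and did not pass under siRNA 2 (-0.12). With siRNA 2, INA (internexin), SYNM (synemin) and NEFL rose by 0.55, 0.30 and 0.30, against -0.06, 0.12 and 0.20 with siRNA 1, which did not pass. VIM, the intermediate filament gene of mesenchymal cells, was below the filter.

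Of 12 genes for filament organisers and the cornified envelope 8 were tested, of which 1 rose and 3 fell with siRNA 1 and 1 rose and 4 fell with siRNA 2, near the 41.7% and 49.3% called among all tested genes. FLG, which encodes the keratin-bundling protein filaggrin, moved in opposite directions, as KRT14 did. It averaged 1.38 ± 0.265 FPKM with siRNA 1, 0.151 ± 0.0249 FPKM with siRNA 2 and 0.787 ± 0.0704 FPKM in control cells (SD, n = 3 each), a rise by 0.78 ± 0.17 and a fall by 2.44 ± 0.18 on the log2 scale (edgeR adjusted p = 0.00652 and 1.17e-05). FLG passed the filter through the siRNA 1 libraries alone, and TGM2 through the control libraries alone. The transglutaminase gene TGM2 fell by 1.63 under siRNA 1 and did not pass under siRNA 2 (-0.57), AKAP9 fell by 0.25 and 0.95, and the casein kinase gene CSNK1A1 by 0.25 and 0.34.

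Of 16 epithelial regulators 13 were tested, of which none rose and 8 fell with siRNA 1 and 1 rose and 9 fell with siRNA 2 (medians -0.37 and -0.81), where 20.5% and 24.9% of all tested genes fell. KLF5, a zinc finger factor gene of epithelia, fell by 2.83 ± 0.15 and 1.74 ± 0.15 (edgeR adjusted p = 6.10e-06 and 2.22e-05). The grainyhead factor genes GRHL1 (-1.27 and -1.12) and GRHL2 (-0.53 and -0.58) fell with both siRNAs, and ESRP2, a splicing factor gene of epithelia, fell by 0.91 under siRNA 2 and did not pass under siRNA 1 (-0.18). The related gene ESRP1 was the regulator that rose under siRNA 2, by 0.39, and did not pass under siRNA 1 (-0.05). With siRNA 2 it averaged 44.6 FPKM, against 8.41 FPKM for ESRP2. The falls in the regulator list stand beside those of KRT8 and KRT19, and their part in those results was not tested. The regulator list was chosen with earlier results of these data known, so its counts are a description.

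**Figure D5:**
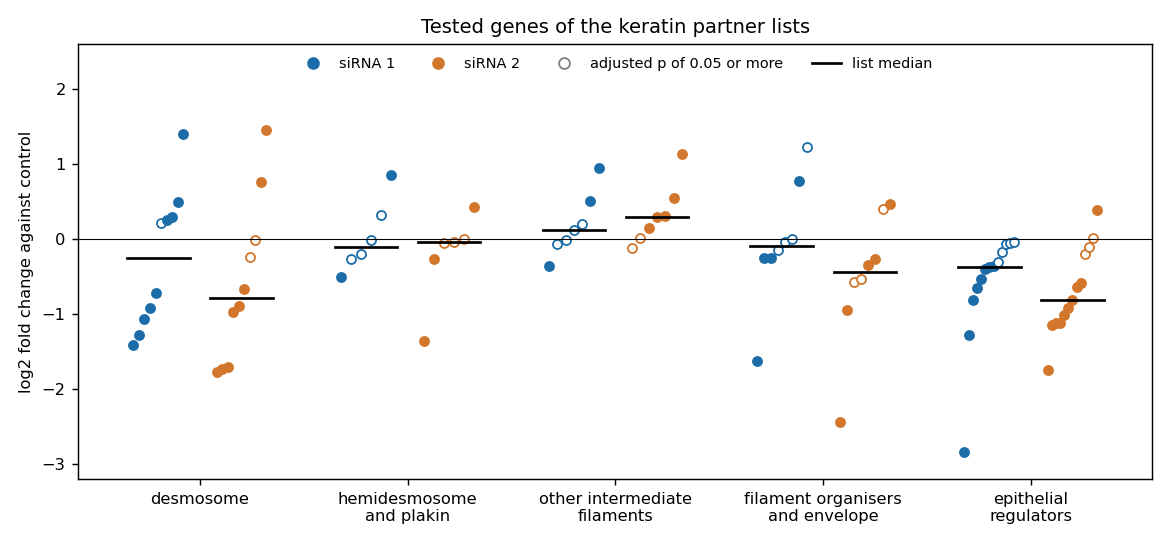
Log2 fold change against control (y axis) of each tested gene in 5 lists of keratin partners with siRNA 1 (blue, left of each pair) and siRNA 2 (orange). Filled points have an adjusted p under 0.05 and black lines are list medians, which were -0.37 and -0.81 for the epithelial regulators.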

How the data were processed

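The deposited table holds, per gene and library, estimated counts and FPKM. Per the file headers the deposited count columns are counts; they are whole numbers, not normalized, treated here like expected (estimated) counts, and rounding before the test changed no value. FPKM was calculated by the authors, per the file headers, and genes without counts, listed there at a small constant, were set to 0. Bowtie 0.12.2 and 2 builds, hg38 and mm8, are listed, per the submitters' processing notes, with no role given. What counted the reads, on which strand and with which annotation is not given in the sources used. Of the identifiers, 58394 are in GENCODE release 29 on GRCh38, where 99.9% overlap the coordinates of the table. The design text calls the RNA retinal, while the labels give VCaP.

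The 12830 genes reaching FPKM 1 in 3 or more of the 9 libraries were tested with edgeR 4.0.16 (R 4.3.3, TMM scaling, quasi-likelihood F test, 2-sided, 1 mean per group over all 9 libraries, common dispersion 0.0437), with Benjamini-Hochberg adjustment over all genes at 0.05, after a test on simulated data. SE is the size of the log2 fold change over the square root of F. The 3 contrasts were each siRNA against control and siRNA 1 against siRNA 2. For untested keratins, ratios of summed counts were scaled for library size, with fragments taken as counts divided by 4 and 95% exact intervals. Intervals and floors cover counting error only. Alternatives used DESeq2 1.42.0, limma 3.58.1, other scaling, filters and samples. Promoters came from RefSeq (GRCh38.p14).

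The members and lists were chosen with earlier results of these data known. The text names the tested keratins, the simple and basal keratins with counts, the 5 highest keratins below the filter, and up to 3 genes per partner list and siRNA with the smallest adjusted p. The floor of KRT4 and KRT73, their neighbours' exon overlaps, the single-library keratins, ESRP1 and the levels of KRT17 and ERG were added after their values were seen. Some marker genes on the lists are not reported here.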

Additional observations from a re-analysis of the deposited data

Results flagged for a closer look

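For 4 keratins the effects of the 2 siRNAs differed by the direct test of siRNA 1 against siRNA 2 in edgeR (Benjamini-Hochberg adjusted over all genes, 39.5% of which were called). KRT14 was 3.15 on the log2 scale higher with siRNA 1 than with siRNA 2 (adjusted p = 2.30e-06), with each siRNA on another side of the control libraries. KRT2 was 2.56 higher with siRNA 1 (adjusted p = 0.00637), KRT19 1.35 higher (adjusted p = 6.21e-04) and KRT18 0.82 higher (adjusted p = 0.00207). In all 4 genes every siRNA 1 library was above every siRNA 2 library. The genes were picked by this test, so the separation adds no support of its own. The share of such genes among all tested genes was not counted. KMT2C itself did not pass this test, at 0.17 ± 0.12 (adjusted p = 0.309).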

How the results depend on the processing

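All 378 single-gene values of the 6 tested keratins and KMT2C under the 18 alternatives kept their side of the threshold, and no called value changed sign. Leaving out 1 library at a time, KRT19 with siRNA 1 ranged from -1.13 to -0.74 (adjusted p at most 0.0122), KRT18 with siRNA 2 from -0.91 to -0.71 and KRT14 from 1.41 to 1.57 with siRNA 1 and from -1.72 to -1.58 with siRNA 2. KRT2, a low gene, came to -1.34 with siRNA 1 and -1.81 with siRNA 2, and KRT14 to -0.94 with siRNA 2, in limma on log2(FPKM + 1), where the pseudocount shrinks low values. The KRT2 difference between the siRNAs, 2.56 in edgeR, was 0.47 there and 1.73 in limma on log2(FPKM + 0.1). On counts scaled for library size only, the share of KRT8, KRT18 and KRT19 was 87.2% with siRNA 1, 88.9% with siRNA 2 and 92.9% in control cells, higher than in FPKM since KRT8 has more counts per FPKM. The replicate numbers of the titles did not pair the samples (correlations of same-numbered deviations from -0.07 to 0.04); with the replicate block, 4 and 5 keratins and 5007 and 6070 genes were called with siRNA 1 and siRNA 2, and 4 keratins and 4766 genes between the siRNAs. Without a filter beyond 1 count, 6 of 28 keratins were called with siRNA 1 and 7 of 28 with siRNA 2, KRT4 and KRT73 being added. Of all 33869 genes then tested, 5066 were called with siRNA 1 and 6744 with siRNA 2. Depth limits the keratins below the filter.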

Other observations

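Looser filters let edgeR test 9 keratins at FPKM 0.1 in 3 libraries and 28 with no filter beyond 1 count. At FPKM 0.1, KRT4 was lower in siRNA 1 cells (adjusted p = 0.0123; 0.0188 without a filter) and in siRNA 2 cells (adjusted p = 0.00384; 0.0048 without a filter) than in control cells, having passed that filter through the control libraries. KRT6B was higher with siRNA 1 than with siRNA 2 by 1.59 ± 0.49 on the log2 scale (adjusted p = 0.0438, but 0.0652 without a filter), and passed with neither siRNA against control (0.87 ± 0.48, adjusted p = 0.231, and -0.72 ± 0.49, adjusted p = 0.307). KRT80 was not called against control, at 0.77 ± 0.30 in siRNA 1 cells (adjusted p = 0.0921) and 0.32 ± 0.30 in siRNA 2 cells (adjusted p = 0.461). Without a filter beyond 1 count, KRT73 was lower than in control cells, where all its counts lie, under siRNA 1 (adjusted p = 0.0244) and siRNA 2 (adjusted p = 0.0183).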
